A study of Mus musculus with 6 samples.

Results

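The proteasome was described here through the transcript levels of its subunits in mouse testis cells. A probe set, a group of short probes on the array that reports 1 transcript, was a member when it was annotated to a single gene whose symbol begins with Psma, Psmb, Psmc, Psmd or Psme and a digit. The inducible subunits Psmb8, Psmb9 and Psmb10 and the unrelated gene Psmc3ip were left out by the rule. It took in 72 of the 22626 probe sets tested, which stand for 39 of 12393 genes. By role these are 8 genes of the alpha ring, 7 of the beta ring, 6 ATPases, 11 non-ATPase subunits, 3 assembly chaperones with a Psmd symbol and 3 activators. The remaining gene, Psme3ip1, encodes a protein that binds an activator and was counted with no role group. A probe set annotated to both Psme2 and Psme2b is no member by the rule and can be assigned to neither gene; its signal is given with the activators. Psmb11 was not analysed here.

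The study compared 3 arrays titled spermatogonial stem cells with 3 arrays titled total testicular cells, all hybridised to the Affymetrix Mouse430A_2 array. All mice carried the Stra8-CD4HAglo transgene, in which a shortened Stra8 promoter drives a surface marker with parts of human CD4 in germ cells. Stem cells were huCD4-positive cells captured with magnetic beads, and each preparation pooled 50 males. For the total testicular cells, the titles and the source text differ, since the source names CD4-negative cells of the same mice; strain and age are not given in the sources used here. Nothing states that the 3 samples of a group came from separate preparations, so p-values measure only the spread between these samples. Values are log2 signals, and each difference is stem cells minus total testicular cells, so that 1 unit is a doubling.

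The proteasome is the main protease of cytosol and nucleus and degrades proteins tagged with ubiquitin. Its 20S core is a barrel of stacked alpha and beta rings: the alpha subunits form the gate, and the beta subunits Psmb5, Psmb6 and Psmb7 hold the peptidase sites. The 19S particle caps the barrel, where non-ATPase subunits bind and strip ubiquitin and a ring of ATPases unfolds the substrate. Other activators open the core without ubiquitin, among them PA28 alpha/beta (Psme1 and Psme2), PA28 gamma (Psme3) and PA200 (Psme4). Male germ cells build a form of the core known as the spermatoproteasome, in which Psma8 takes the place of its close relative Psma7, and mice need it for meiosis.

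The arrays differed in ways that touch the results. Correlations between arrays over all probe sets were 0.970 to 0.984 among stem cell arrays and 0.992 to 0.995 among total testicular cell arrays. Stem cell array 1 stood apart, with a mean of 8.96 on its hybridization controls against 8.37 to 8.51 on all other arrays. Of 16 macrophage markers measured, 15 passed the test and were higher in stem cell arrays, with a median difference of 4.33. Their summed signal was 13.48, 12.01 and 11.60 on the log2 scale in stem cell arrays 1, 2 and 3, and 8.27 to 8.84 in total testicular cell arrays. Of 13 markers of undifferentiated spermatogonia, 0 passed in either direction in limma, with 1 higher and 1 lower at an unadjusted p under 0.05. The defining markers Gfra1, Ret and Zbtb16 averaged 2.55, 2.53 and 2.52 in stem cell arrays, near the background of 2.15 set by bacterial control probe sets. Id4 was brighter, with a mean of 7.44 in stem cell arrays and a difference of -0.55. Itga6, at 3.86 in stem cell arrays, was the one higher at an unadjusted p under 0.05, by 0.99 (limma, adjusted p = 0.0739). Zbtb16 was the one lower, with a difference of -0.43 (limma, adjusted p = 0.178). Of 4 Leydig, 10 Sertoli, 5 peritubular myoid, 10 spermatocyte and 11 spermatid markers, 1 passed, the Sertoli marker Clu, which was higher in stem cells. All 4 Leydig markers were higher at an unadjusted p under 0.05, with a median difference of 1.89 and summed signals of 11.58, 10.57 and 9.55 in stem cell arrays, against 8.96, 9.21 and 7.91 in total testicular cell arrays. At the same unadjusted cut-off, 3 Sertoli markers and 1 peritubular myoid marker were higher. Of the spermatocyte markers 1 was higher and 3 were lower, and of the spermatid markers 0 were higher or lower. The label of stem cells is therefore used only as the name of the samples. The file headers give run start times but no rounds. Starts less than 15 minutes apart were taken here as 1 fluidics round, which gave 3 rounds. Round 1 held stem cell array 1 and total testicular cell arrays 1 and 3, round 3 held stem cell array 2 and total testicular cell array 2, and stem cell array 3 ran alone.

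No proteasome probe set passed an adjusted p of 0.05 in limma, with 0 of 72 higher and 0 of 72 lower in stem cells. Among all probe sets, 1.4% passed as higher and 0.15% as lower, so the share among members was at or below the background in both directions. At an unadjusted p under 0.05, 6 member probe sets were higher (8.33%, background 11.4%) and 6 were lower (8.33%, background 12.1%). The largest differences were a higher signal of Psme1, the alpha subunit of PA28, at 1.99 ± 0.43 (SE), and of the core subunit Psma7 at 0.86 ± 0.23. Most other genes lay close to no difference, with 36 of 39 genes (92.3%) within 0.5 of 0, against 80.5% of all genes. The median difference over the 39 genes was -0.10, against -0.05 over all genes. All 39 genes had a signal above background in the probe set that represents them, the one with the highest mean, and these means spanned 5.38 to 10.67. Of the 72 probe sets, 64 were above background. In whole samples such as these, fewer cells of a type and less RNA per cell cannot be told apart.

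**Figure D1:**
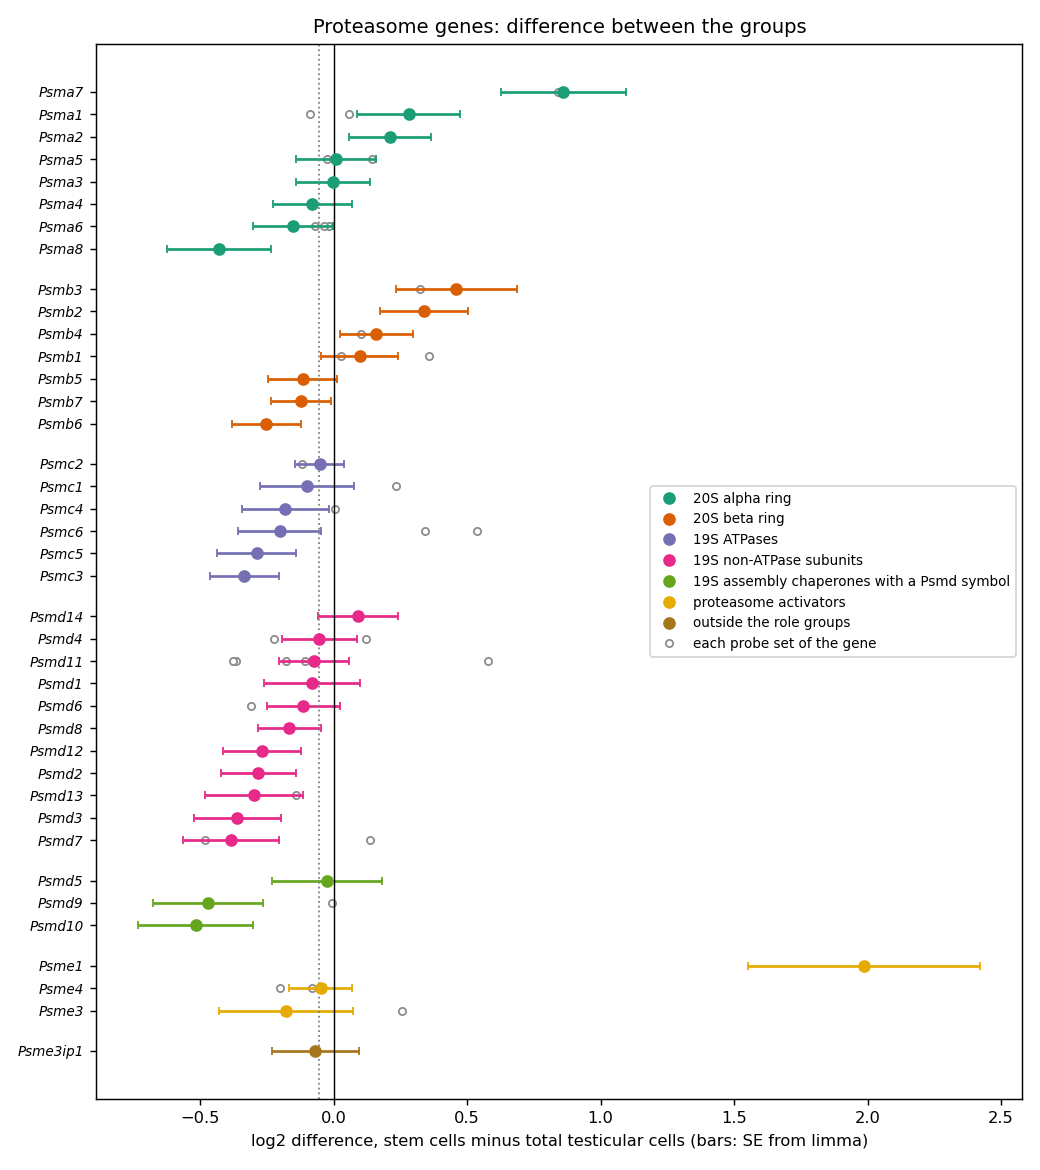
Log2 difference (stem cells minus total testicular cells, 3 arrays each) on the horizontal axis for each of the 39 proteasome genes, grouped by role down the page. Filled points with bars are the gene's representative probe set ± SE, open points are its single probe sets, and the dotted line is the median of all genes (-0.05); Psme1 at 1.99 and Psma7 at 0.86 lie farthest to the right, and the 19S genes lie mostly left of 0.

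The groups did not overlap for 3 member genes with higher values in stem cells (7.69%, against 13.8% of all genes) and for 6 with lower values (15.4%, against 19.2% of all genes). Those higher were Psme1, Psma7 and Psmb2, and those lower were Psmb6, Psmc3, Psmd3, Psmd12, Psmd9 and Psmd10. Both shares were below the background, so non-overlap was no more frequent in the proteasome set than in other genes.

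In the alpha ring, Psma7 and Psma8 had differences of opposite sign, neither past the test. Psma7, the alpha subunit of the common core, had signals of 7.18, 6.86 and 6.32 in the stem cell arrays, against 5.87, 6.16 and 5.75 in the total testicular cell arrays. Every stem cell array was above every total testicular cell array, with means of 6.79 ± 0.43 and 5.93 ± 0.21 (SD, n = 3 each). The difference of 0.86 is 1.82-fold on the linear scale (limma, adjusted p = 0.0902). A separate Psma7 probe set gave 6.96, 6.45 and 6.31 in stem cell arrays, against 5.66, 5.84 and 5.70 in total testicular cell arrays, with a difference of 0.84 ± 0.20 (limma, adjusted p = 0.0694). Both probe sets of Psma7 thus showed the same separation of the groups. Within the stem cell group, Psma7 and the macrophage and Leydig marker sums were all highest on array 1 and lowest on array 3, and the part of those cells' signal was not tested. Within fluidics round 1 the representative probe set differed by 1.37 and within round 3 by 0.70. Without stem cell array 1 the difference was 0.66 (limma, adjusted p = 0.136), and without stem cell array 3 it was 1.09 (limma, adjusted p = 0.0159).

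Psma8, the germ cell subunit of the spermatoproteasome, had 8.44, 9.06 and 8.32 in stem cell arrays, against 8.99, 9.19 and 8.93 in total testicular cell arrays. Stem cell arrays 1 and 3 were below all total testicular cell arrays, while stem cell array 2 lay among them. The means were 8.61 ± 0.40 and 9.04 ± 0.13 (SD, n = 3 each), a difference of -0.43 ± 0.20 that did not pass (limma, adjusted p = 0.222). It was -0.52 within round 1 and -0.13 within round 3. Without stem cell array 2 it was -0.66 (limma, adjusted p = 0.0376), and with the fluidics module, taken from the file headers, as a block it turned to 0.13. That block rests on stem cell array 2 and total testicular cell array 3 alone.

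The difference Psma7 minus Psma8 within an array does not depend on a scaling shared by the whole array; it was picked after its values were seen. It was -1.26, -2.20 and -2.00 in stem cell arrays, against -3.12, -3.03 and -3.18 in total testicular cell arrays. The stem cell arrays were all higher, by 1.29 on average, with a two-sided exact permutation p of 0.1, the smallest that 3 against 3 arrays can give. Any full separation of the groups gives this p, so it adds nothing to the separation itself. The 2 signals come from different probe sets, so their own levels are not set against each other. Of the other alpha subunits, Psma1 had 7.01, 6.89 and 6.38 in stem cell arrays, against 6.46, 6.56 and 6.41 in total testicular cell arrays, and the groups overlapped. Psma2, Psma3, Psma4, Psma5 and Psma6 differed by -0.15 to 0.21.

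**Figure D2:**
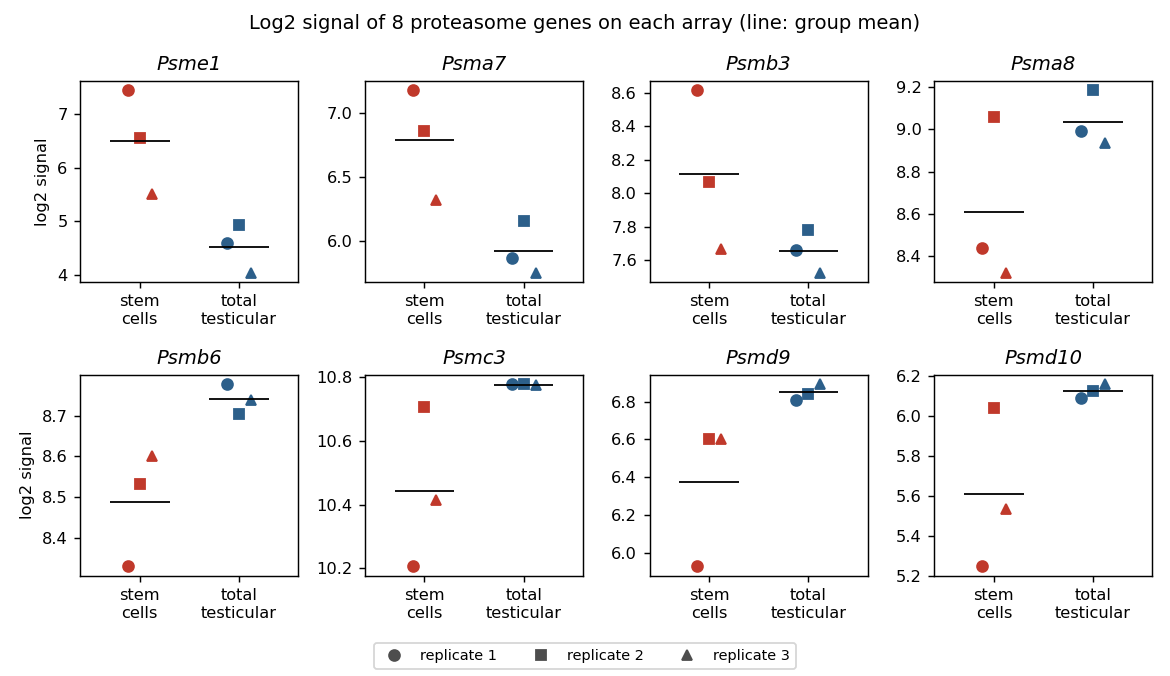
Log2 signal of 8 proteasome genes on each array, with stem cell arrays left and total testicular cell arrays right in each panel. Symbols mark the replicate numbers and lines the group means; Psme1 and Psma7 show separate groups with the stem cell arrays above, Psmc3, Psmd9, Psmd10 and Psmb6 separate groups with them below, and Psma8 and Psmb3 overlap.

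In the beta ring, differences ran from -0.25 to 0.46 and none passed the test; the 3 subunits with peptidase sites are given first. Psmb6, which carries the caspase-like site, had 8.33, 8.53 and 8.60 in stem cell arrays, against 8.78, 8.70 and 8.74 in total testicular cell arrays. The groups did not overlap, and the difference was -0.25 ± 0.13 (limma, adjusted p = 0.269). Psmb5, with the chymotrypsin-like site, had 8.05, 8.21 and 8.04 in stem cell arrays, against 8.17 to 8.24 in total testicular cell arrays, a difference of -0.12 ± 0.13. Psmb7, with the trypsin-like site, had 9.49, 9.57 and 9.47 in stem cell arrays, against 9.59, 9.75 and 9.55 in total testicular cell arrays, a difference of -0.12 ± 0.11. For both genes the groups overlapped.

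Psmb3, a structural beta subunit, had 8.62, 8.07 and 7.67 in stem cell arrays, against 7.66, 7.78 and 7.53 in total testicular cell arrays. Stem cell array 3 lay within the range of the other group, and the difference of 0.46 ± 0.23 did not pass (limma, adjusted p = 0.254). It was 1.02 within round 1 and 0.28 within round 3, and 0.21 without stem cell array 1. The other Psmb3 probe set separated the groups, with 7.48, 7.36 and 7.30 in stem cell arrays, against 7.00, 7.19 and 6.98 in total testicular cell arrays. Psmb2, another structural subunit, chosen after its values were seen because its groups did not overlap, had 7.64, 7.34 and 7.18 in stem cell arrays, against 6.98, 7.13 and 7.04 in total testicular cell arrays (difference 0.34; limma, adjusted p = 0.251). Psmb1 and Psmb4 differed by 0.10 and 0.16. Over the 15 core genes, 8 differences were positive and 7 negative, with a median of 0.01.

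All 6 ATPases of the 19S particle had a negative difference, from -0.33 to -0.05, with a median of -0.19. Psmc3 had the most negative one and is among the brightest members. Its signals were 10.21, 10.71 and 10.41 in stem cell arrays, against 10.78, 10.78 and 10.77 in total testicular cell arrays. The total testicular cell arrays were nearly equal, and all stem cell arrays were below them, by -0.57 within round 1 and -0.07 within round 3. The difference of -0.33 ± 0.13 did not pass (limma, adjusted p = 0.170). Without stem cell array 1 it was -0.22 (limma, adjusted p = 0.313), and without stem cell array 2 it was -0.47 (limma, adjusted p = 0.0466). Psmc2 lay nearest to 0, at -0.05. Psmc6 had 6.61, 6.87 and 6.60 in stem cell arrays, against 6.83, 6.94 and 6.92 in total testicular cell arrays (difference -0.20). A dimmer Psmc6 probe set, with 2.81, 2.27 and 2.96 in stem cell arrays and 2.13 to 2.15 in total testicular cell arrays, had a positive difference of 0.54 (limma, adjusted p = 0.129). Its mean in total testicular cell arrays, 2.14, is not above background, so its difference gives no direction for the gene.

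Among the 11 non-ATPase subunits, 10 had a negative difference and the median was -0.17. Psmd7, the partner of the deubiquitinase in the lid of the particle, had 6.89, 7.29 and 6.76 in stem cell arrays, against 7.52, 7.27 and 7.31 in total testicular cell arrays. Stem cell array 2 was above the lowest total testicular cell array, so the groups overlapped; the difference was -0.39 ± 0.18 (limma, adjusted p = 0.231). A dimmer Psmd7 probe set gave -0.48 with separate groups, and another gave 0.14. The deubiquitinase itself, Psmd14, which cuts ubiquitin chains from the substrate, was the single non-ATPase subunit with a positive difference. It had 7.65, 7.70 and 7.40 in stem cell arrays, against 7.41, 7.61 and 7.45 in total testicular cell arrays, a difference of 0.09 (limma, adjusted p = 0.751). It was -0.02 when arrays were centred on their medians.

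Psmd3 and Psmd12, structural subunits of the lid, were chosen after their values were seen because their groups did not overlap. Psmd3 had 6.10, 6.47 and 6.17 in stem cell arrays, against 6.62, 6.55 and 6.65 in total testicular cell arrays. Psmd12 had 7.66, 8.04 and 7.89 in stem cell arrays, against 8.18, 8.16 and 8.05 in total testicular cell arrays. The differences were -0.36 and -0.27 (limma, adjusted p = 0.221 and 0.299). Psmd11, a further lid subunit, had 6 probe sets whose differences ran from -0.38 to 0.58, the widest spread of any member. Its brightest one read 8.49, 8.64 and 8.41 in stem cell arrays, against 8.61, 8.68 and 8.48 in total testicular cell arrays. The one at 0.58 read 6.54, 6.27 and 6.16 in stem cell arrays, against 5.46, 5.97 and 5.81 in total testicular cell arrays. No direction can be given for Psmd11, since its probe sets separate the groups in opposite ways.

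The assembly chaperones with a Psmd symbol hold ATPases during assembly and leave before the particle is finished. Psmd10, also known as gankyrin, had 5.25, 6.04 and 5.53 in stem cell arrays, against 6.09, 6.12 and 6.16 in total testicular cell arrays. All stem cell arrays were below, array 2 by little, and the difference of -0.52 ± 0.22 (0.699 times the level) did not pass (limma, adjusted p = 0.189). Psmd9 had 5.93, 6.60 and 6.60 in stem cell arrays, against 6.81, 6.84 and 6.89 in total testicular cell arrays, a difference of -0.47 ± 0.21 (limma, adjusted p = 0.206). Its other, dimmer probe set differed by -0.01. Within round 1 the differences were -0.88 for Psmd10 and -0.92 for Psmd9, and within round 3 they were -0.08 and -0.24. Without stem cell array 1, Psmd10 differed by -0.34 (limma, adjusted p = 0.334) and Psmd9 by -0.25 (limma, adjusted p = 0.307). Without stem cell array 2, Psmd10 differed by -0.73 (limma, adjusted p = 0.0450). Psmd5, the remaining chaperone of this kind, lay at -0.03.

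In their representative probe sets, 16 of 17 genes of the 19S particle had a negative difference (94.1%), against 57.0% of all genes. Their median was -0.18, against -0.05 for all genes. The 16 include Psmd11, for which no direction can be given. They also include Psmc1, Psmc4, Psmc6, Psmd4 and Psmd7, each with a positive difference in another, dimmer probe set. The core had a median of 0.01. A negative lean was not particular to the 19S genes. Of 11 spermatid markers 1 difference was positive (median -0.14), of 10 spermatocyte markers 4 (median -0.09) and of 13 markers of undifferentiated spermatogonia 4 (median -0.13). The macrophage, Leydig, Sertoli and peritubular myoid lists had positive medians. The 19S genes showed their negative median on stem cell arrays 1 and 3 and hardly on array 2. With the average over total testicular cell arrays set to 0, their median was -0.29, -0.02 and -0.32 on stem cell arrays 1, 2 and 3, against 0.02, 0.04 and -0.04 on the total testicular cell arrays. For the core the medians were 0.08, 0.12 and -0.10 on stem cell arrays, against -0.05, 0.12 and -0.07 on total testicular cell arrays, so there the groups overlapped. Within round 1 the 19S median difference was -0.26 and within round 3 it was -0.04. With the fluidics module as a block, which rests on stem cell array 2 and total testicular cell array 3, 6 of 17 were negative, with a median of 0.02.

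The core median minus the 19S median within each array, a measure chosen after its values were seen, was 0.27, 0.03 and 0.07 on stem cell arrays, against -0.14, -0.05 and -0.16 on total testicular cell arrays. All stem cell arrays were higher, on average by 0.24. This measure is a description, with no test, because the genes were grouped with earlier results known. The median difference of the core minus that of the 19S particle was 0.15 to 0.27 over the settings of the fit and the arrays left out. Settings that centre whole arrays or change only the test cannot alter this value, which stayed at 0.19 in them.

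**Figure D3:**
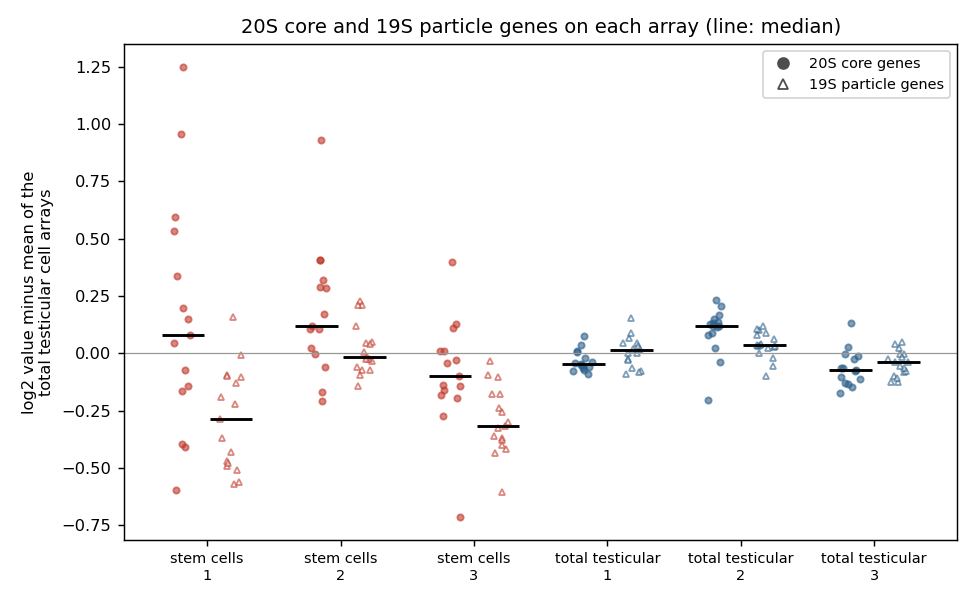
Log2 signal minus the average over total testicular cell arrays, for 15 genes of the 20S core (filled circles) and 17 of the 19S particle (open triangles) on each array, stem cell arrays left. Lines mark medians; the 19S median is -0.29 and -0.32 on stem cell arrays 1 and 3 and near 0 on the others, and the core median lies between -0.10 and 0.12 on all arrays.

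Among the activators, Psme1 had the largest difference of any member. PA28 alpha is known to be induced by interferon gamma and to be abundant in antigen-presenting cells. Psme1 had 7.45, 6.56 and 5.51 in stem cell arrays, against 4.59, 4.92 and 4.04 in total testicular cell arrays. Every stem cell array was above every total testicular cell array, and within the stem cell group array 1 was the highest and array 3 the lowest, as for the macrophage and Leydig marker sums given above. The means were 6.50 ± 0.97 and 4.52 ± 0.45 (SD, n = 3 each), and the difference of 1.99 is 3.97-fold (limma, adjusted p = 0.0590). It was 3.13 within round 1 and 1.64 within round 3. Under alternative settings it spanned 1.52 to 2.52 and passed the threshold in 5 of them. These 5 are not independent of each other. Stem cell array 3 had a round to itself, so a fit that allows for rounds takes no part of the difference from it. That fit gave 2.49, close to the value with the array left out. Another of the 5 treats equal replicate numbers as pairs, which nothing in the sources states. Without stem cell array 1 it was 1.52 (limma, adjusted p = 0.0650), and without stem cell array 3 it was 2.49 (limma, adjusted p = 0.00501). The part of macrophage and Leydig cell signal in the Psme1 difference was not tested. The probe set shared by Psme2, which encodes the partner of PA28 alpha, and Psme2b read 6.66, 5.87 and 5.33 in stem cell arrays, against 4.37, 4.62 and 4.28 in total testicular cell arrays. Its groups did not overlap, and its difference of 1.53 ± 0.31 passed (limma, adjusted p = 0.0485), with 2.34 within round 1 and 1.25 within round 3.

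The nuclear and sperm-related activators differed little. Psme3, which forms a nuclear activator alone, had 8.07, 8.38 and 9.07 in stem cell arrays, against 8.73, 8.39 and 8.94 in total testicular cell arrays. The groups overlapped over most of their range (difference -0.18; limma, adjusted p = 0.705). Its dimmer probe sets gave -0.18 with separate groups and, below background on average, 0.26. Psme4, the activator PA200 that acts on acetylated histones during sperm maturation, had 9.22, 9.27 and 9.44 in stem cell arrays, against 9.38, 9.28 and 9.42 in total testicular cell arrays, a difference of -0.05 (limma, adjusted p = 0.840). Its other probe sets gave -0.20 and -0.08. Psme3ip1, whose product binds PA28 gamma, differed by -0.07 (limma, adjusted p = 0.832).

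**Figure D4:**
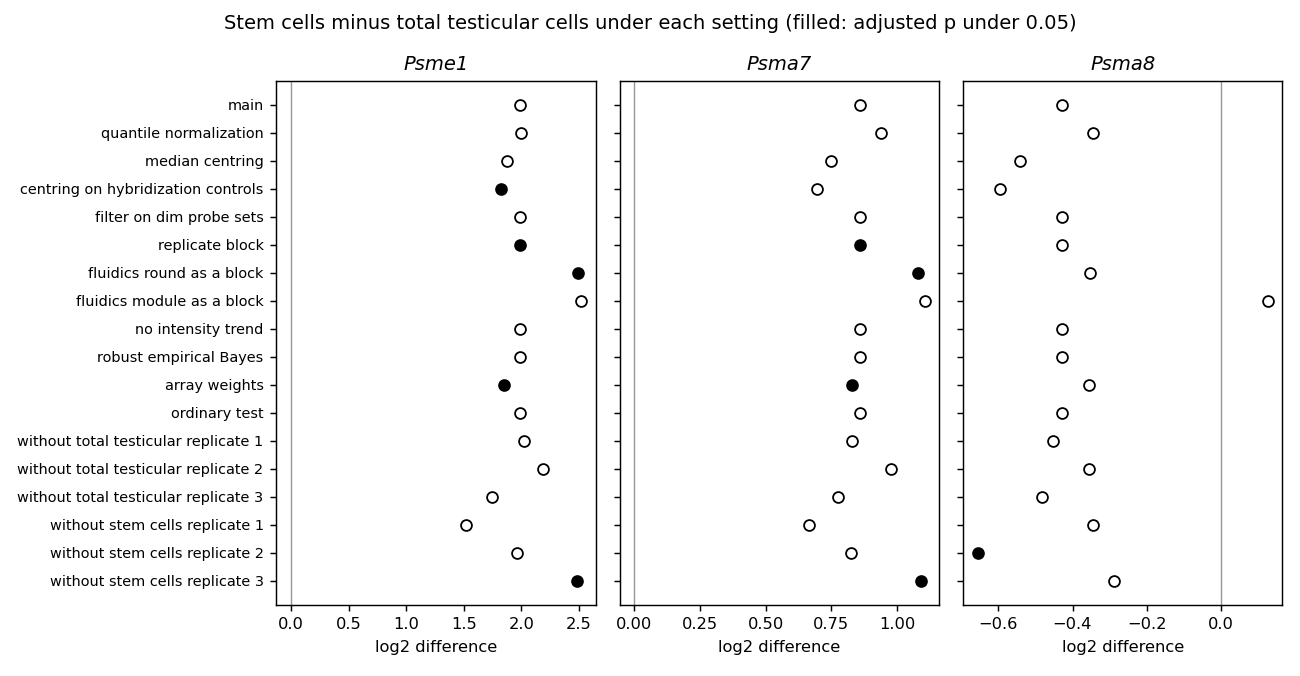
Log2 difference of Psme1, Psma7 and Psma8 (horizontal axis) under each setting of the fit (vertical axis), stem cells minus total testicular cells. Filled symbols passed an adjusted p of 0.05; Psme1 stays between 1.52 and 2.52 and Psma7 between 0.66 and 1.10, while Psma8 runs from -0.66 to 0.13.

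The upstream sequences of Psme1 and Psma7 are shown because these genes had the largest differences. They are RefSeq sequences on GRCm38.p6, 250 bases before the transcript start, written in the gene's direction. Psme1 (chr14, plus strand) is given at chr14:55578244-55578493 and Psma7 (chr2, minus strand) at chr2:180042465-180042714. Capitals mark the CCAAT box of Psma7, at positions -196 to -192 from the start; the 250 bases of Psme1 hold no match to the 4 motifs searched.
Psme1: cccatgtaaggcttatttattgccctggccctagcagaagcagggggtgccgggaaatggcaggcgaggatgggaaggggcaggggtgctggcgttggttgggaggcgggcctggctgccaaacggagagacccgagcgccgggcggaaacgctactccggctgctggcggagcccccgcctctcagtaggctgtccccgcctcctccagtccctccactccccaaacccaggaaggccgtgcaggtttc
Psma7: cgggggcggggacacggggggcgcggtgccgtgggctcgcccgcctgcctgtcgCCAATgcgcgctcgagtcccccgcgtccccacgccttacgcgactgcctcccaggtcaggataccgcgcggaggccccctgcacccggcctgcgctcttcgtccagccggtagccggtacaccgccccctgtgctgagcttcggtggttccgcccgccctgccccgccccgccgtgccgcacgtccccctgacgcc

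Motifs were searched on both strands from 250 bases before to 50 after the start, in 35 windows of the 32 member genes matched and in all 32851 windows. Psmc3, Psmb7, Psmd3, Psmb1, Psma8, Psmd7 and Psmb2 were not matched. The core of the interferon element, GAAA repeated after any 2 bases, was found in 11.4% of member windows, against 3.44% of all windows. The 4 genes that hold it differed unlike each other: Psme1 by 1.99, Psmb3 by 0.46, the ubiquitin receptor Psmd4 by -0.05 and Psmd9 by -0.47. Each is shown with the match in capitals, in the gene's direction; it lies on the gene's own strand in Psmd9 and on the opposite strand in the others. The stretches lie at chr14:55578493-55578522 (plus strand) for Psme1, chr11:97703261-97703290 (plus) for Psmb3, chr3:95042675-95042704 (minus) for Psmd4 and chr5:123228021-123228050 (plus) for Psmd9.
Psme1: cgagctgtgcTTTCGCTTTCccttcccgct
Psmb3: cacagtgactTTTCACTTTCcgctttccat
Psmd4: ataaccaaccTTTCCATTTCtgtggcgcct
Psmd9: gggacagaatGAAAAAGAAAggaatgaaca

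The core of the antioxidant response element, TGACNNNGC, the motif bound by the factors Nfe2l1 and Nfe2l2 that drive proteasome genes, was found in 17.1% of member windows, against 12.4% of all windows. It lies in Psmb5, Psmb6, Psmc6, Psmd12, Psmd9 and Psme4. Their representative differences were all negative, from -0.47 to -0.05, as were those of 74.4% of member genes and 57.0% of all genes. The motif is shown in capitals for the peptidase genes Psmb5 (chr14:54618023-54618052, minus strand) and Psmb6 (chr11:70525338-70525367, plus) and for Psmd9 (chr5:123228149-123228178, plus).
Psmb5: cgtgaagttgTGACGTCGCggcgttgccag
Psmb6: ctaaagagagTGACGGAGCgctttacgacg
Psmd9: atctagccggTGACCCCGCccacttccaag

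CCAAT was found in 37.1% of member windows, against 37.4% of all windows. GAGGAAG, the core bound by PU.1, the factor named in the series title, was found in 20% of member windows, against 13.6% of all windows. These are 7 windows of 6 genes, since Psmc2 was counted more than once. The genes are Psma4, Psma6, Psmb6, Psmc1, Psmc2 and Psme3ip1. Their representative differences were all negative, from -0.25 to -0.05, as were those of 74.4% of member genes and 57.0% of all genes. A match says only that these letters stand in the window.

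In the 5 gene lists around the proteasome that were measured, 0 genes passed the adjusted threshold in limma. Over all genes, 11.8% were higher and 13.1% lower at an unadjusted p under 0.05, the share against which the counts below are read. The inducible catalytic subunits Psmb8, Psmb9 and Psmb10, which replace Psmb5, Psmb6 and Psmb7 in the immunoproteasome, were higher in stem cells at an unadjusted p under 0.05 in 3 of 3 cases, with a median difference of 1.11. Psmb8 had 5.60, 4.30 and 4.30 in stem cell arrays, against 3.16, 3.77 and 3.41 in total testicular cell arrays (limma, adjusted p = 0.0888). Psmb9 had 5.19, 4.43 and 3.88 in stem cell arrays, against 3.43, 3.28 and 3.47 in total testicular cell arrays (limma, adjusted p = 0.0901). Psmb10 had 4.44, 4.13 and 3.99 in stem cell arrays, against 3.29, 3.38 and 3.33 in total testicular cell arrays (limma, adjusted p = 0.0558). For all 3 genes the groups did not overlap, as for 13.8% of all genes in this direction. The macrophage markers given above were higher too, and their part was not tested.

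Of 5 chaperones of core assembly, 0 were higher and 1 was lower at an unadjusted p under 0.05, with a median of -0.12. That 1 was Psmg2, at -0.63 (limma, adjusted p = 0.15), with -0.31 in its other probe set; Pomp, which helps the beta rings mature, was at 0.25. Of 9 proteasome-associated proteins measured, 0 were higher and 2 lower, with a median of -0.18. These were Pithd1 at -0.45 and the deubiquitinase Uchl5 at -0.37 (limma, adjusted p = 0.186 and 0.191). Of 9 shuttle and segregase factors measured, 1 was higher and 1 lower. They are the related shuttles Ubqln2, at 0.96, and Ubqln1, at -0.56 (limma, adjusted p = 0.0917 and 0.0994). Other probe sets above background differed less, by 0.10 for Ubqln2 and by -0.08 and -0.29 for Ubqln1, and their groups overlapped.

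Among 8 regulators of proteasome gene transcription, 2 were higher and 1 was lower at an unadjusted p under 0.05, with a median of 0.14. Nfe2l2, the antioxidant response factor, had 6.02, 5.01 and 4.41 in stem cell arrays, against 3.60, 4.14 and 4.17 in total testicular cell arrays (difference 1.18; limma, adjusted p = 0.117). Keap1, which targets Nfe2l2 for degradation, had 5.59, 6.24 and 6.02 in stem cell arrays, against 6.40, 6.36 and 6.58 in total testicular cell arrays (difference -0.50; limma, adjusted p = 0.177). In these probe sets the groups did not overlap. The other Keap1 probe set, at 4.46, 6.14 and 4.62 in stem cell arrays, against 6.08, 5.99 and 6.02 in total testicular cell arrays, did overlap, with stem cell array 2 the highest of all. Mafg was also higher at the unadjusted cut-off, by 0.44 (limma, adjusted p = 0.190). Its other probe set differed by 0.14, with overlapping groups. Nfe2l1 differed by 0.26, and its groups overlapped (limma, adjusted p = 0.466).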

How the data were processed

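Total RNA of 6 samples was hybridised to 1 array each. The authors deposited processed probe set values, which lie on a log2 scale as their range shows; RMA and MAS5 are listed without version or role, per the submitters' processing notes, and which of them gave the values and their normalization is not known here. Array precision is limited by the number of arrays, 3 in each group. Per the file headers, the arrays shared 1 chip lot, 1 scanner and 1 run day, and starts less than 15 minutes apart counted as 1 fluidics round.

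Groups and replicate numbers came from the titles. Of 22690 probe sets, 64 controls were left out. The deposited log2 values were compared in R 4.3.3 by a linear model of limma 3.58.1 (functions lmFit and eBayes, trend over mean intensity, two-sided), with Benjamini-Hochberg adjustment over 22626 probe sets. Background was the 95th percentile of the means of 27 bacterial control probe sets. A list's summed level is the log2 of its summed linear signals. The annotation gave 20380 of the probe sets tested a single gene, 1555 no gene and 691 more than 1 gene, and no gene was given a value from the last kind. The procedure was tested on simulated data.

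The members, the lists and the rule for named genes were chosen with earlier results of these data known. The rule named the most positive and the most negative gene of each role group, Psmb5, Psmb6, Psmb7, Psma8, Psmd14, the activators and the 5 genes whose probe sets disagree most. Psma1, Psma2, Psma3, Psma4, Psma5, Psma6, Psmb1, Psmb2, Psmb4, Psmd3, Psmd4, Psmd12 and Psme3ip1 were added after their values were seen. Alternatives changed normalization, centring, the filter on dim probe sets, blocks, the empirical Bayes step, the threshold, array weights and the probe set that stands for a gene, or left out 1 array.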

Additional observations from a re-analysis of the deposited data

How the results depend on the processing

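Of the results on 18 named genes under the alternatives, 305 kept direction and side of the threshold, 12 newly passed it and 16 reversed. No named gene had passed in the main comparison, so keeping its side meant not passing. Changes of the empirical Bayes step, the replicate block and the filter on dim probe sets leave the difference itself unchanged, so the direction could not reverse there. Median centring shifted all probe sets to a median of -0.15 and the members to -0.18, and centring on hybridization controls to -0.20 and -0.24. With module as a block, the comparison rests on stem cell array 2 and total testicular cell array 3 alone, and the member median was 0.022. Probe sets higher numbered 1 with hybridization control centring (Psme1), and 3 each (Psme1 and both of Psma7) with the fluidics round as a block and with array weights, when 3.73%, 5.30% and 3.77% of all probe sets passed as higher. With the replicate number as a block they also numbered 3 (4.71% of all). Stem cell array 3 had a round to itself, so the fit that allows for rounds takes no part of the difference from it. Its 3 passing probe sets are therefore not separate from those found without that array. Nothing states that the replicate numbers pair the samples. Same-numbered deviations correlated at -0.012, 0.012 and 0.297, and not every sample correlated best with its own number. Deviations from a mean of 3 arrays are tied to each other, so these correlations cannot decide whether the samples were paired. Leaving out 1 array gave 0 to 3 higher, 0 to 3 lower and a median of -0.13 to -0.04; the 3 higher came without stem cell array 3, when 6.03% of all probe sets passed as higher, and 1 higher (the dimmer Psmc6 probe set; 3.00% of all) and the 3 lower (Psma8, Psmc3, Psmd10) without stem cell array 2, when 4.17% of all probe sets passed as lower. Reversals with the module block were Psma8 0.13, Psmb7 0.019, Psmc2 0.0058, Psmd11 0.16 and Psmd5 0.19. Quantile normalization gave Psmd11 0.0079 and Psmd5 0.012. Psmd14 was -0.020 with median and -0.074 with hybridization control centring. Psmd5 was 0.18 with the round block, 0.011 without total testicular cell array 1 and 0.17 without stem cell array 3 (-0.15 to 0.17 over the arrays left out), and Psme3 was 0.039 without stem cell array 1 (-0.46 to 0.039). The median over probe sets gave Psmc6 0.54 and Psmd11 0.23, and the probe set with the second highest mean gave Psmc6 0.54; this Psmc6 probe set is not above background in total testicular cells. The cause was not tested. No member passed the ordinary test or an adjusted p of 0.01 in the main comparison. Settings for linear values did not apply.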
